A study of Mus musculus with 10 samples.

Results

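The vascular endothelial growth factors (VEGFs), their receptors and their co-receptors are described here in mouse liver. The group holds 10 genes, taken by symbol from a table of 24016 transcripts. They are 5 ligands (Vegfa, Vegfb, Vegfc, Figf, which encodes VEGF-D, and Pgf, which encodes placental growth factor), 3 receptor tyrosine kinases (Flt1, Kdr and Flt4, which encode VEGF receptors 1, 2 and 3) and 2 neuropilin co-receptors (Nrp1 and Nrp2). All 10 genes had 1 row each. RNA was sequenced from the liver of 10 male C57BL/6 mice on day 6 after an adenovirus was given through the tail vein. The 5 AdVEGFA mice received a virus that expresses VEGF-A165 from the CMV promoter, which is active in many cell types. The 5 AdCMV mice received a virus with the same promoter and no transgene, so that mice of both groups carried adenovirus. Mice were assigned by the titles and descriptions of the samples, since the treatment text of all 10 samples, those of the AdCMV group included, names AdVEGF-A. The livers were perfused with saline before RNA was taken.

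VEGF-A binds Flt1 and Kdr, and Kdr carries most of its growth signal in endothelial cells, while Flt1 binds VEGF-A tightly, signals weakly and acts largely as a trap. Placental growth factor and VEGF-B bind Flt1, VEGF-C binds Flt4 and, once fully cut by proteases, also Kdr, and mouse VEGF-D binds Flt4. Neuropilins bind VEGF-A165 and class 3 semaphorins and join the receptors in complexes. In liver, hepatocytes are a known source of VEGF-A, and sinusoidal endothelial cells carry all 3 receptors.

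The deposited values are RPKM, reads scaled to transcript length and to the mapped tags of the library. The steps between the low values gave back the reads behind them and the size of each library, which ranged from 5758960 to 13493990 mapped tags in the AdCMV group and from 5596560 to 8133950 in the AdVEGFA group. The major urinary protein (Mup) genes of hepatocytes took 36.6% ± 12.2 (SD, n = 5) of the reads of AdCMV livers and 16.3% ± 7.92 of those of AdVEGFA livers. Across all tested genes the median log2 fold change, AdVEGFA against AdCMV, was 0.38, and the part of the Mup genes in this shift was not tested. Changes are therefore given also relative to that median, or after median-ratio scaling, which sets the typical gene equal between libraries. Alb, which encodes albumin and is a hepatocyte marker, was the most abundant of the hepatocyte markers in both groups, at 7715.9 ± 2055.6 (SD, n = 5) RPKM in AdCMV livers and 16666.5 ± 1840.7 in AdVEGFA livers. The log2 fold change of Alb was 1.14 on the deposited values, and 0.74 after median-ratio scaling (limma adjusted p = 0.163). On the deposited values the lowest of the 10 hepatocyte markers were Apob (-0.11) and Hnf4a (-0.16).

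The question was which genes of the VEGF system differed at the RNA level in livers given the VEGF-A virus. Kdr, Flt1, Vegfc, Nrp1, Flt4 and Nrp2 rose, and Vegfa, Vegfb and Figf were not called. Calls come from limma on log2(RPKM + 0.1) and needed both a fold change beyond 1 or -1 in log2 and an adjusted p (Benjamini-Hochberg) below 0.05. Tested were genes whose mean exceeded 0.5 RPKM in either group. Of the 10 genes 9 passed that filter, and 6 of these were called higher and 0 lower, where 13.0% of all 13933 genes tested were called higher and 1.54% lower. After median-ratio scaling 5 of the 9 were called higher, against 7.63% of all 13827 genes tested, and Nrp2 was the gene lost. For 6 of the 10 genes, Vegfa, Vegfc, Kdr, Flt1, Flt4 and Nrp1, every AdVEGFA mouse lay above every AdCMV mouse, as 14.3% of all genes tested did. Ordered by log2 fold change among the 13933 genes, Kdr was at place 165, Flt1 at 173, Vegfc at 294, Nrp1 at 710, Flt4 at 758 and Nrp2 at 1533. Of all tested genes, 1808 were called higher and 214 lower with the deposited scaling, 1055 and 444 after median-ratio scaling, and 1099 and 397 after upper quartile scaling. The added 0.1 makes changes of genes near 0 look smaller than they are.

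**Figure D1:**
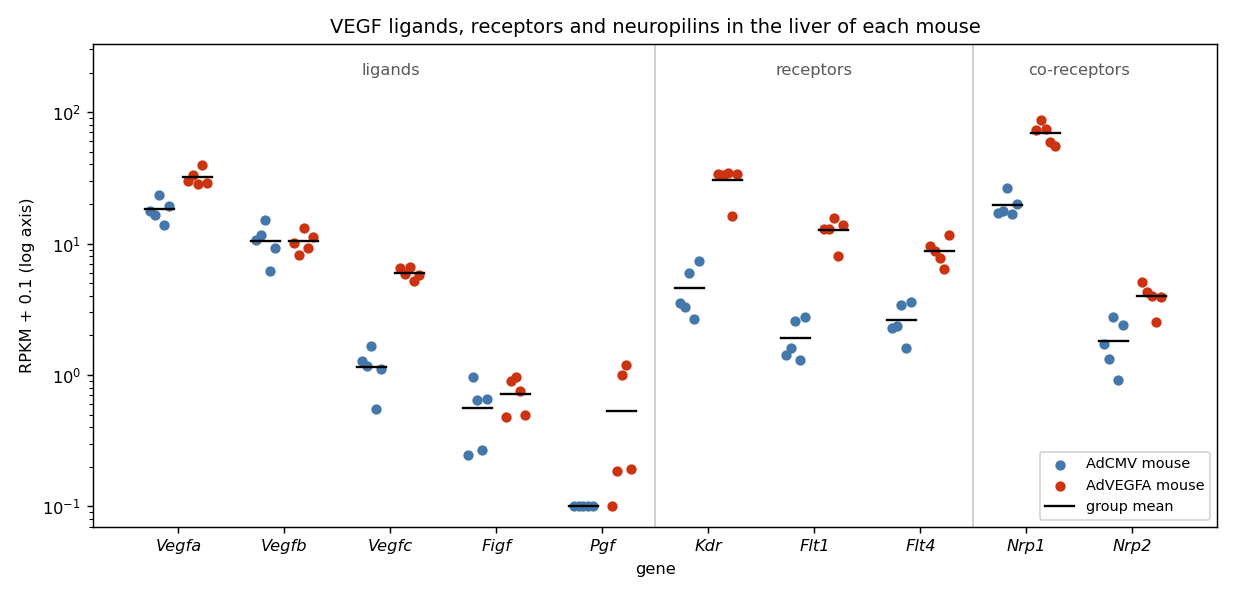
RPKM + 0.1 of the 10 genes (log axis) in each AdCMV mouse (blue) and each AdVEGFA mouse (red), with the group mean as a black line. The groups are apart for Vegfa, Vegfc, Kdr, Flt1, Flt4 and Nrp1 and overlap for Vegfb, Figf, Pgf and Nrp2, and 1 AdVEGFA mouse, replicate 4, lies at 16.0 RPKM for Kdr, below the others of its group.

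Among the ligands, Vegfa (NM_001110268, mm9 chromosome 17, 46153943 to 46162112, minus strand), the main driver of vessel growth, had 17.7, 16.5, 23.2, 13.8 and 19.2 RPKM in AdCMV replicates 1 to 5 and 29.7, 33.1, 28.3, 39.4 and 28.6 RPKM in AdVEGFA replicates 1 to 5. All AdVEGFA mice were thus above all AdCMV mice, with the highest value in AdVEGFA replicate 4. The log2 fold change was 0.82 (standard error 0.19, limma adjusted p = 0.00487), under the fold threshold, and it was 0.44 relative to the median of all genes. After median-ratio scaling it was 0.42 (limma adjusted p = 0.0244). The row counts reads of the mouse gene, and the labels do not give the species of the VEGF-A165 transgene, while the paper's methods measured VEGF protein with an assay for the human form. Reads of the transgene count only as far as they map to this row, and their part in its value was not tested.

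Vegfb (NM_001185164, mm9 chromosome 19, 7056962 to 7062141, minus strand), a ligand of Flt1 linked to lipid handling and cell survival, had 10.5, 11.4, 15.1, 6.06 and 9.19 RPKM in the AdCMV mice and 10.0, 8.04, 13.1, 9.23 and 11.2 RPKM in the AdVEGFA mice. The ranges of the groups lay over each other. Its log2 fold change was 0.02 with a 95% confidence interval from -0.47 to 0.52 (limma adjusted p = 0.953), and -0.38 after median-ratio scaling (limma adjusted p = 0.145), so the sign of the estimate turned with the scaling and neither value passed the test.

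Vegfc (NM_009506, mm9 chromosome 8, 55162886 to 55271808, plus strand), the ligand best known for lymphatic growth, rose. It had 1.18, 1.07, 1.56, 0.453 and 1.02 RPKM in the AdCMV mice and 6.47, 5.75, 6.49, 5.12 and 5.71 RPKM in the AdVEGFA mice. The lowest AdVEGFA mouse was more than 3 times as high as the highest AdCMV mouse, and the AdVEGFA mice were close to each other. This is 2.46 in log2 (standard error 0.27, limma adjusted p = 4.18e-06), and 2.08 after median-ratio scaling. Between 8 and 27 reads lay behind each AdCMV value and between 68 and 80 behind each AdVEGFA value.

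Figf (NM_010216, mm9 chromosome X, 160811480 to 160840579, plus strand), the other ligand of Flt4, was close to the lower limit of measurement. Its reads numbered 2 to 22 per AdCMV mouse (0.148 to 0.873 RPKM) and 4 to 11 per AdVEGFA mouse (0.381 to 0.861 RPKM), with full overlap between the groups. Its log2 fold change was 0.50 with a 95% confidence interval from -0.43 to 1.42 (limma adjusted p = 0.408), so a change of the size seen for Nrp2 could not be told from none at this depth. Figf passed the filter through the AdVEGFA group alone, with means of 0.459 and 0.618 RPKM.

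Pgf (NM_008827, mm9 chromosome 12, 86507589 to 86518263, minus strand), a ligand of Flt1 that is low in most healthy adult tissues, did not pass the filter and was not tested. It had 0 reads in all 5 AdCMV mice and 0, 1, 8, 14 and 1 reads in AdVEGFA replicates 1 to 5, which is 0, 0.085, 0.899, 1.08 and 0.093 RPKM. Most of its reads thus came from AdVEGFA replicates 3 and 4. Set against a floor of 3 reads over the AdCMV group, the 24 pooled AdVEGFA reads gave a ratio of about 10.5-fold. The floor allows for counting error in the AdCMV reads. The AdVEGFA reads were taken as counted, so the ratio is not a lower bound. Without AdVEGFA replicate 4, which held 14 of the 24 reads, the ratio was about 5.75-fold. With no filter on RPKM its limma adjusted p was 0.056, and it was not called. In 3 fits without 1 mouse it passed the filter, in each case through the AdVEGFA mean and because a mouse with 0 or 1 reads was left out. It was called in 1 of these, without AdVEGFA replicate 1 (log2 fold change 2.18, limma adjusted p = 0.0368), and since the filter there depends on the outcome no result is drawn from that call.

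All 3 receptors rose. Kdr (NM_010612, mm9 chromosome 5, 76329299 to 76374453, minus strand), the main signalling receptor for VEGF-A, had 3.44, 3.20, 5.91, 2.58 and 7.28 RPKM in the AdCMV mice and 33.7, 33.4, 34.4, 16.0 and 33.8 RPKM in the AdVEGFA mice. The other 4 AdVEGFA mice were within 1 RPKM of each other, while replicate 4 was far below them, though still above every AdCMV mouse. The log2 fold change was 2.78 (standard error 0.29, limma adjusted p = 2.63e-06), 2.38 after median-ratio scaling, and 3.00 without replicate 4.

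Flt1 (NM_010228, mm9 chromosome 5, 148373772 to 148537564, minus strand), the receptor that also acts as a trap, had 1.33, 1.49, 2.48, 1.21 and 2.64 RPKM in the AdCMV mice and 12.8, 12.9, 15.6, 8.01 and 13.7 RPKM in the AdVEGFA mice. Again replicate 4 was the lowest AdVEGFA mouse, and the groups did not overlap. Flt1 rose by 2.75 in log2 (standard error 0.26, limma adjusted p = 8.57e-07), and 2.37 after median-ratio scaling. The table has 1 row for the gene, so the full-length and the soluble form of Flt1 were not separated.

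Flt4 (NM_008029, mm9 chromosome 11, 49423181 to 49466241, plus strand), the receptor of VEGF-C and VEGF-D, had 2.19, 2.25, 3.30, 1.498 and 3.47 RPKM in the AdCMV mice and 9.47, 8.74, 7.72, 6.31 and 11.4 RPKM in the AdVEGFA mice. Every AdVEGFA mouse was above the AdCMV range, and replicate 4 was once more the lowest of them. Flt4 rose by 1.78 in log2 (standard error 0.25, limma adjusted p = 5.21e-05), and 1.39 after median-ratio scaling.

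Since the receptors and Vegfc rose together, the 250 bases before the start of these genes are shown. They come from the RefSeq promoter table of build GRCm38.p6, another build than that of the expression table, and each is written 5′ to 3′ along the gene. Capitals mark matches, on either strand, to the GC box bound by Sp factors, the core of the hypoxia response element, 2 motifs of ETS factors and 1 of GATA factors, whose letters follow the sequences.
Kdr, chr5:75978456-75978705, minus strand: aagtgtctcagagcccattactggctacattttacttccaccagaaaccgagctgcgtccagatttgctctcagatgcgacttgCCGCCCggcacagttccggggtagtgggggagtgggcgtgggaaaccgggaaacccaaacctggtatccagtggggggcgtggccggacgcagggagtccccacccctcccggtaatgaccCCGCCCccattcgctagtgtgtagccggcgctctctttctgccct
Flt1, chr5:147726012-147726261, minus strand: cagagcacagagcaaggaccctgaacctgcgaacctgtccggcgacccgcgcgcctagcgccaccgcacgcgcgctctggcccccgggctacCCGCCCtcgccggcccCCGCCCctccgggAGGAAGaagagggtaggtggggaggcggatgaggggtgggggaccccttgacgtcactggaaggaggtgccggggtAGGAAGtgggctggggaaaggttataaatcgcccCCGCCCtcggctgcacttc
Flt4, chr11:49609429-49609678, plus strand: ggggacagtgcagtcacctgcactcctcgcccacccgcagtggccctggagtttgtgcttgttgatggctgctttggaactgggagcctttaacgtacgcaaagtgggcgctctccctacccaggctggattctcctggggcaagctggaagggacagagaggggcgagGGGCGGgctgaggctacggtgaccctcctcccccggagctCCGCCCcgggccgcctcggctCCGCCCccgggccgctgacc
Vegfc, chr8:54077282-54077531, plus strand: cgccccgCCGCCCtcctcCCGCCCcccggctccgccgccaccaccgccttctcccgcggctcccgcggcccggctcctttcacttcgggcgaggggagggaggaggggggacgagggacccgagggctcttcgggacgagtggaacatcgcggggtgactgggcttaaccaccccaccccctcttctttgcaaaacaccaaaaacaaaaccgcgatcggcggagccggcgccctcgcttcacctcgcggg
In windows from 250 bases before to 50 after the start, all 10 genes had an entry, with 12 windows in all because Vegfa and Pgf have 2 starts each, and Figf was matched under its newer symbol Vegfd. The GC box, GGGCGG, was found in 9 of the 10 genes, all but Figf, and in 35.7% of all 32851 promoters of 300 bases counted. Kdr and Vegfc had 2 GC boxes each, and Flt1 and Flt4 had 3 each. Of the ETS motifs, AGGAAG was in Flt1, which had 2 matches, and in Nrp1, and in 35.4% of all promoters. CGGAAG was in 0 of the 10 genes and 16.9% of all promoters. The core of the hypoxia response element, ACGTG, was found only in the second window of Vegfa and in 19.6% of all promoters, and the GATA motif AGATAA only in Vegfa and Figf and in 11.2% of all promoters. The second Vegfa window, chr17:46025164-46025413, lies downstream of the first, chr17:46032378-46032627, since the gene is on the minus strand. A match is a description of the letters and not of a bound site.

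Both neuropilins were called on the deposited scale. Nrp1 (NM_008737, mm9 chromosome 8, 130882973 to 131029375, plus strand), the co-receptor that brings VEGF-A165 to Kdr, had 16.9, 17.5, 26.5, 16.8 and 19.98 RPKM in the AdCMV mice and 72.9, 86.5, 73.8, 59.2 and 55.5 RPKM in the AdVEGFA mice, with a wide gap between the groups. Nrp1 rose by 1.83 in log2 (standard error 0.20, limma adjusted p = 3.42e-06), and 1.43 after median-ratio scaling. Nrp2 (NM_010939, mm9 chromosome 1, 62749891 to 62865266, plus strand), the co-receptor that favours VEGF-C and is known from lymphatic and venous endothelium, had 1.64, 1.23, 2.65, 0.811 and 2.32 RPKM in the AdCMV mice and 5.02, 4.199, 3.88, 2.45 and 3.81 RPKM in the AdVEGFA mice. AdVEGFA replicate 4 lay below AdCMV replicate 3, so the groups overlapped by 1 mouse on each side. The log2 fold change was 1.19 (standard error 0.30, limma adjusted p = 0.00863). It fell under the threshold of 1 after median-ratio scaling (0.81), after upper quartile scaling (0.86), with a pseudocount of 1 (0.86) and without AdCMV replicate 4 (0.97), all with a limma adjusted p under 0.05, from 0.00717 to 0.0215.

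**Figure D2:**
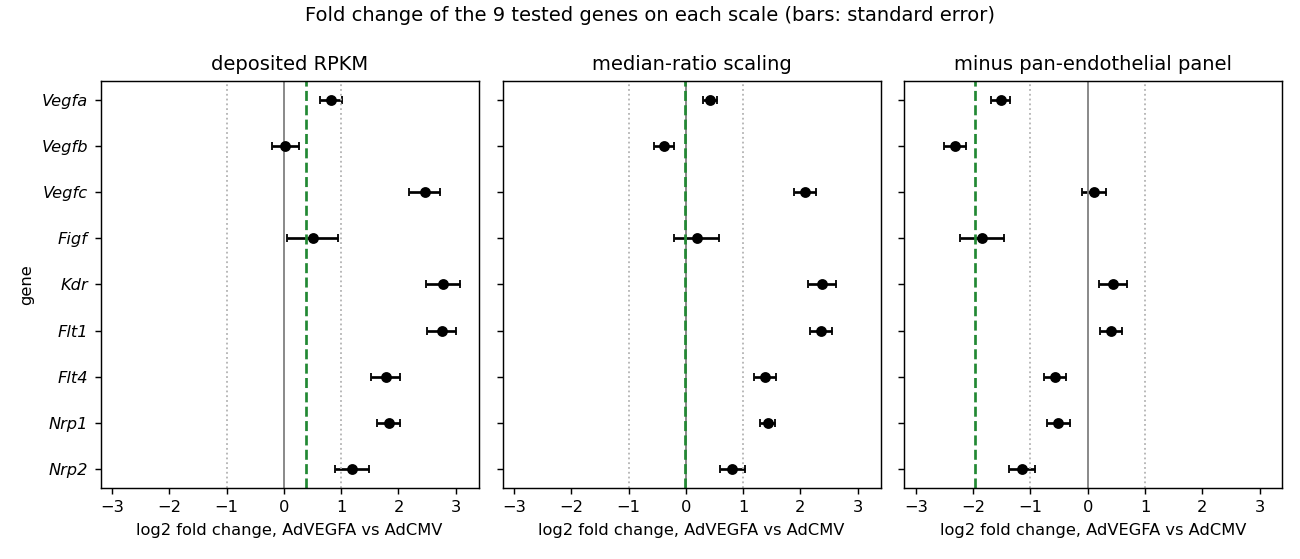
Log2 fold change, AdVEGFA against AdCMV, of the 9 tested genes with its standard error, on the deposited scale, after median-ratio scaling and relative to the mean of 12 pan-endothelial markers; dotted lines mark -1 and 1, and the green dashed line is the all-gene median (0.38, -0.01 and -1.96). Kdr, Flt1 and Vegfc lie highest on each scale, and on the endothelial scale they are at 0.44, 0.41 and 0.11 while the other 6 lie below 0.

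The order of the levels differed between the groups in places. In the AdCMV group Nrp1 had the highest mean, 19.5 ± 4.09 (SD, n = 5) RPKM, followed by Vegfa (18.1 ± 3.49), Vegfb (10.4 ± 3.28), Kdr (4.48 ± 2.01), Flt4 (2.54 ± 0.827), Flt1 (1.83 ± 0.677), Nrp2 (1.73 ± 0.755), Vegfc (1.06 ± 0.398), Figf (0.459 ± 0.304) and Pgf. Neighbours in that order overlapped in every case except Figf and Pgf. In the AdVEGFA group Nrp1 led with 69.6 ± 12.4 (SD, n = 5) RPKM, and Vegfa (31.8 ± 4.65) and Kdr (30.3 ± 7.97) came next and overlapped. Flt1 (12.6 ± 2.79), Vegfb (10.3 ± 1.93), Flt4 (8.74 ± 1.92) and Vegfc (5.91 ± 0.577) followed, each overlapping with the next, and Nrp2 (3.87 ± 0.928), Figf (0.618 ± 0.221) and Pgf (0.432 ± 0.516) came last. The gaps between Nrp1 and Vegfa, Kdr and Flt1, Vegfc and Nrp2, and Nrp2 and Figf held no overlap. Flt4 thus stood above Flt1 in mean level in the AdCMV group and below it in the AdVEGFA group.

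The summed RPKM of the 3 receptors was 8.85 ± 3.48 (SD, n = 5) in the AdCMV mice and 51.6 ± 11.97 in the AdVEGFA mice, and that of the 5 ligands was 30.0 ± 7.04 and 49.1 ± 3.86. Kdr made up 49.9% ± 2.99 (SD, n = 5) of the receptor sum in the AdCMV mice and 58.1% ± 3.26 in the AdVEGFA mice, Flt1 20.9% ± 1.48 and 24.6% ± 1.97, and Flt4 29.3% ± 2.62 and 17.3% ± 2.92. Within the ligands, Vegfa held 60.8% ± 4.92 (SD, n = 5) and 64.7% ± 5.64, Vegfb 34.3% ± 3.94 and 21.1% ± 4.37, and Vegfc 3.41% ± 0.7098 and 12.1% ± 1.77. Nrp1 held 92.1% ± 2.29 (SD, n = 5) of the neuropilin sum in the AdCMV mice and 94.7% ± 1.10 in the AdVEGFA mice.

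Plain ratios of RPKM within a library do not depend on the scaling between libraries. The 5 ratios tested were taken on RPKM + 0.1 and depend on it through the added 0.1. They were compared with two-sided exact permutation tests, with p-values adjusted over the 5. The smallest p this design can give is 0.00794. No difference was detected for Flt1 and Kdr, with Flt1/Kdr at 0.385, 0.467, 0.420, 0.466 and 0.363 in the AdCMV mice and 0.378, 0.386, 0.453, 0.5004 and 0.405 in the AdVEGFA mice. The difference in mean log2 ratio was -0.03 (standard error 0.11, exact permutation p = 0.794, adjusted p = 0.794), which does not show that the ratio was equal. With a pseudocount of 1, which weighs on the lower gene, the difference was -0.27 (exact permutation, adjusted p = 0.0635). Flt4/Kdr was 0.635, 0.701, 0.559, 0.579 and 0.477 in the AdCMV mice and 0.281, 0.262, 0.225, 0.394 and 0.338 in the AdVEGFA mice. Every AdVEGFA mouse lay below every AdCMV mouse, and the log2 ratio fell by 1.00 (standard error 0.17, exact permutation p = 0.00794, adjusted p = 0.0265).

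Nrp1/Kdr was 4.91, 5.47, 4.48, 6.49 and 2.74 in the AdCMV mice and 2.16, 2.59, 2.15, 3.70 and 1.64 in the AdVEGFA mice. AdCMV replicate 5 and AdVEGFA replicate 4 reached into the other group, and the log2 ratio fell by 0.95 (standard error 0.28, exact permutation p = 0.0159, adjusted p = 0.0265). Nrp2/Nrp1 fell by 0.64 on the log2 scale (standard error 0.25, exact permutation p = 0.0317, adjusted p = 0.0397), from a mean log2 ratio of -3.51 to -4.15. Vegfa/Vegfb was 1.69, 1.44, 1.54, 2.27 and 2.09 in the AdCMV mice and 2.96, 4.12, 2.16, 4.27 and 2.57 in the AdVEGFA mice, a rise of 0.80 in log2 ratio (standard error 0.23, exact permutation p = 0.0159, adjusted p = 0.0265), with 4 of the 5 AdVEGFA mice above all AdCMV mice.

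The 4 ratios with a difference kept its direction in every fit without 1 mouse, while with 9 mice some adjusted p-values were above 0.05. The adjusted exact permutation p was 0.0529 for Flt4/Kdr (AdCMV replicate 2, log2 difference -0.94), for Nrp1/Kdr (AdCMV replicates 1, 2 and 3 and AdVEGFA replicates 2 and 3, log2 differences from -0.98 to -0.89) and for Vegfa/Vegfb (AdCMV replicates 1, 2 and 3 and AdVEGFA replicate 2, log2 differences from 0.70 to 0.78). For Nrp2/Nrp1 it was between 0.0694 and 0.0893 without AdCMV replicate 1, 2, 3 or 5 or AdVEGFA replicate 2, 3 or 4, with log2 differences from -0.69 to -0.52, and 0.0694 with a pseudocount of 0.01.

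**Figure D3:**
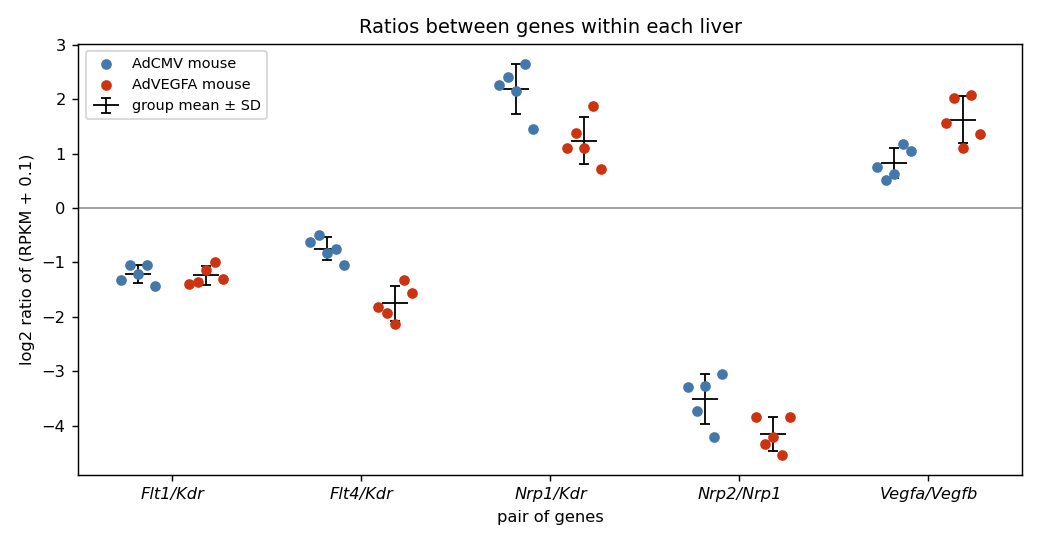
Log2 ratio of RPKM + 0.1 for 5 pairs of genes in each AdCMV mouse (blue) and AdVEGFA mouse (red), with the group mean and SD in black. Flt1/Kdr overlaps between the groups (means -1.21 and -1.24), Flt4/Kdr is apart without overlap (-0.75 and -1.75), and the other 3 pairs overlap in part.

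The receptors are carried mainly by endothelial cells, and the levels were therefore set against 12 pan-endothelial markers of the same liver. All 12 markers tested were called higher, among them Esam and Tie1, which encode an adhesion molecule and a receptor of endothelial cells, with log2 fold changes of 3.17 and 3.02, and with Tek and Ptprb lowest at 1.43 and 1.41. All 12 were called after median-ratio scaling also, and the shares of all genes called higher were 13.0% and 7.63%. The summed RPKM of the panel was 55.2, 63.3, 81.9, 41.8 and 81.2 in the AdCMV mice and 309.9, 274, 348, 374 and 287 in the AdVEGFA mice, with Egfl7, which encodes a secreted endothelial protein, the most abundant. No marker of the panel was at 0. In bulk tissue a larger number of endothelial cells and more RNA of these genes per cell cannot be told apart.

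After the mean log2 value of the panel was subtracted in each library, Kdr differed by 0.44 (standard error 0.24, limma adjusted p = 0.0989), Flt1 by 0.41 (standard error 0.20, limma adjusted p = 0.0583) and Vegfc by 0.11 (standard error 0.21, limma adjusted p = 0.599). None of these 3 passed the test, and the interval of Kdr, from -0.08 to 0.96, holds both no difference from the panel and a rise well above it. Flt4 was lower in the AdVEGFA group on this scale (log2 fold change -0.57, limma adjusted p = 0.0103), as was Nrp1 (-0.51, limma adjusted p = 0.0269). Both were short of the fold threshold. These values are changes between the groups and not levels, and Nrp1 itself was above the panel in every mouse. With a pseudocount of 1 Nrp1 was at -0.24 (limma adjusted p = 0.227), and without AdCMV replicate 3 or 4 or AdVEGFA replicate 4 or 5 its limma adjusted p was between 0.0537 and 0.0699. Called lower on this scale were Nrp2 (-1.15, limma adjusted p = 0.000244), Vegfa (-1.52, limma adjusted p = 9.08e-07), Figf (-1.85, limma adjusted p = 0.00032, and 0.000191 with no filter) and Vegfb (-2.32, limma adjusted p = 6.5e-08). These are 4 of the 9 tested genes, with 0 called higher, where 90.3% of all genes were called lower and 0.452% higher, so that 4 of 9 is a smaller share than that of the whole table.

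Values on this scale depended on the pseudocount, on single mice and on the panel. With a pseudocount of 1 Kdr was at 0.52 (limma adjusted p = 0.0399) and Vegfc at -0.25 (limma adjusted p = 0.107). In AdVEGFA replicate 4 Kdr was 0.30 below the panel (log2 difference -0.30), while it was 0.79 to 1.11 above it in the other 4 AdVEGFA mice and -0.04 to 0.57 in the AdCMV mice. Without that mouse Kdr differed by 0.68 (limma adjusted p = 0.00158) and Flt1 by 0.59 (limma adjusted p = 0.00173), still under the fold threshold, and Nrp2 by -0.97 (limma adjusted p = 0.000366), no longer past it. With 8 sinusoidal markers as the reference instead, which rose less, Kdr (1.05) and Flt1 (1.02) were called higher and Vegfb (-1.71) and Figf (-1.23) lower, where 1.25% of all genes were called higher and 75.9% lower. On that reference Vegfc differed by 0.72 (limma adjusted p = 0.00461), Flt4 by 0.04, Nrp1 by 0.10, Nrp2 by -0.54 and Vegfa by -0.91.

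**Figure D4:**
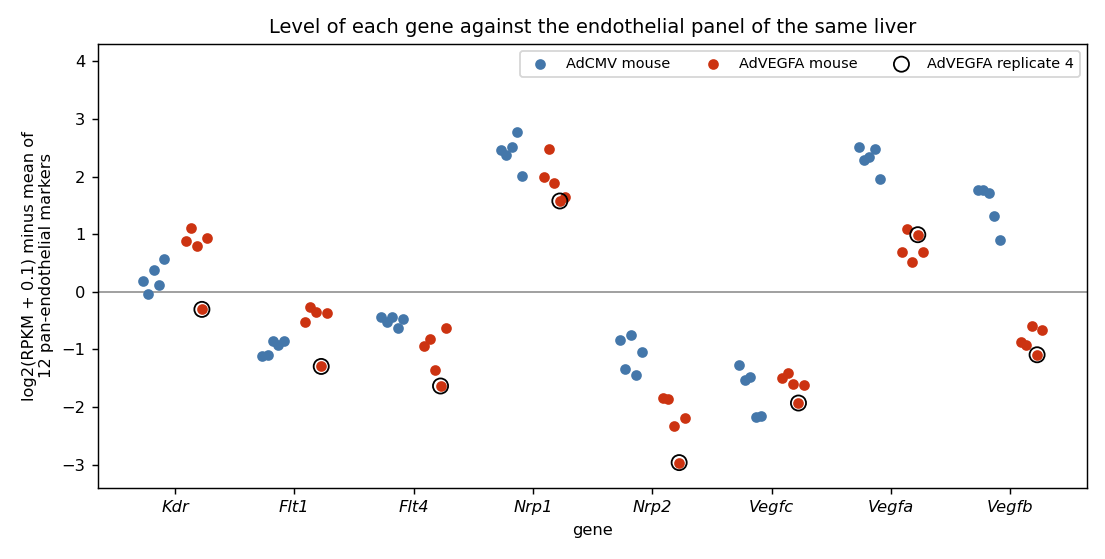
Log2(RPKM + 0.1) of 8 genes minus the mean of 12 pan-endothelial markers in the same liver, for each AdCMV mouse (blue) and AdVEGFA mouse (red), with AdVEGFA replicate 4 circled. Kdr and Flt1 are above the AdCMV range in 4 AdVEGFA mice and below it in replicate 4 (-0.30 for Kdr and -1.29 for Flt1), and Vegfa and Vegfb are below the AdCMV range in all 5.

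Among 10639 tested genes with a mean of at least 2 RPKM, the profile over the 10 mice nearest to that of Kdr was that of Flt1, with a root mean square difference of 0.15 on the log2 scale after each profile was centred on its mean. Next came Erg (0.19), which encodes an ETS transcription factor of endothelial cells and is 1 of the 12 panel markers. Nearest to Flt1 were Kdr (0.15) and Tbx2 (0.19), which encodes a T-box transcription factor. Erg rose by 2.74 and Tbx2 by 2.70 in log2. The profile of Vegfa was nearest to those of Snap23 (0.09), a gene of membrane fusion, Galnt11 (0.10), which encodes an enzyme that adds sugars to proteins, and Ash2l (0.11), a gene of histone methylation, with log2 fold changes of 0.75, 0.77 and 0.70. The measure is dominated by the difference between the groups where that is large.

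Of the 7 class 3 semaphorins, a family that holds other ligands of neuropilins, 4 passed the filter. Of these, 2 were called higher, beside 13.0% of all genes. Both were also called after median-ratio scaling, beside 7.63%. Without AdVEGFA replicate 5 the count was 1 and without AdCMV replicate 5 it was 3. Sema3f, a ligand of Nrp2, had 0.901, 0.813, 2.15, 1.26 and 2.11 RPKM in the AdCMV mice and 6.91, 5.83, 7.58, 7.95 and 7.84 RPKM in the AdVEGFA mice (log2 fold change 2.34, limma adjusted p = 6.95e-06). Sema3g was read 0 to 2 times per AdCMV mouse and 6 to 30 times per AdVEGFA mouse (limma adjusted p = 0.00745). With no filter it was also called (limma adjusted p = 0.00208). It passed the filter through the AdVEGFA group alone, its log2 fold change ran from 0.57 with a pseudocount of 1 to 4.03 with one of 0.01, and it was not called with the former. Sema3a, Sema3b and Sema3c were under the filter. Sema3d (0.85) and Sema3e (0.59) were tested and not called. Among 4 tested plexins, the signalling partners of neuropilins, 2 were called, beside 13.0% of all genes: Plxnd1, the endothelial plexin, rose from 2.79 ± 1.15 (SD, n = 5) to 23.8 ± 4.29 RPKM, a log2 fold change of 3.12, and Plxna4 rose by 1.59. Plxna4 too passed the filter through the AdVEGFA group alone. It was also called with no filter (limma adjusted p = 0.00249), but with a pseudocount of 1 it was at 0.52 and not called. Plxna2 (0.75) and Plxna1 (0.40) were not called.

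Of the adaptors, kinases and other effectors below Kdr, 33 of 34 were tested, 8 were called higher and 0 lower, beside 13.0% and 1.54% of all genes. After median-ratio scaling 3 were called, near the 7.63% of all genes, and without AdCMV replicate 4 there were 4. The median log2 fold change was 0.56, which is 0.17 above that of all genes. Nos3, the endothelial nitric oxide synthase, rose by 2.39 and Fyn, a Src family kinase, by 2.16. At the other end were Hspb1, a small heat shock protein, at -0.12 and Sh2d2a, the T cell adaptor that binds Kdr, at -0.50, neither of them called. Of 12 genes for phosphatases, ubiquitin ligases and endocytic adaptors that act on VEGF receptors, 5 were called higher (4 after median-ratio scaling), beside 13.0% (7.63%) of all genes. Their median was 0.72, where that of all genes was 0.38. Efnb2, the ephrin that promotes uptake of Kdr and Flt4, had 0.416, 0.464, 0.441, 0.320 and 0.725 RPKM in the AdCMV mice and 13.8, 12.3, 18.4, 11.2 and 17.9 RPKM in the AdVEGFA mice, which is 4.70 in log2 (limma adjusted p = 2.24e-09). It passed the filter through the AdVEGFA group alone and was also called with no filter (limma adjusted p = 1.58e-07). Dab2, a clathrin adaptor, rose by 1.85, and Ptpn11 (0.46) and Ptprj (0.35), both phosphatases, were not called.

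Genes known to rise in endothelial cells exposed to VEGF-A were also followed. This list, like the others, was chosen with earlier results of these data known, so its counts are a description and not a test. Of 16 such genes 14 were tested and 13 were called higher, beside 13.0% of all genes, and 11 of 14 after median-ratio scaling, beside 7.63%, with a median log2 fold change of 2.76. Esm1, which encodes the secreted proteoglycan endocan, had 0.132, 0.424, 0.363, 0.202 and 0.497 RPKM in the AdCMV mice and 53.5, 50.1, 63.5, 60.1 and 54.0 RPKM in the AdVEGFA mice, which is 7.14 in log2 (limma adjusted p = 1.62e-11). Esm1 and Apln, another of the 13, passed the filter through the AdVEGFA group alone, and both were also called with no filter. In AdVEGFA replicate 4, the mouse with the lowest Kdr, Esm1 was the second highest. Kcne3, a potassium channel subunit, rose by 5.21 and Angpt2, a ligand of the receptor Tek, by 1.31, though Angpt2 was not called after median-ratio scaling (0.95). Rcan1, an inhibitor of calcineurin, was the gene tested and not called, at -0.12.

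Oxygen sensing is the best known control of Vegfa, and its genes were called at about the share of all genes. Of 8 genes 1 was called higher, where 13.0% of all genes were, namely Epas1, which encodes HIF-2alpha and is abundant in endothelial cells, at 1.32, and 0 of 8 were called after median-ratio scaling (0.92 for Epas1). Egln1, an oxygen sensor, was at 0.65, Hif1a at 0.22 and Hif1an at 0.06, with none of these 3 called. Among 9 other targets of hypoxia-inducible factors 1 was called, again near the 13.0% of all genes, namely Adm, which encodes the vasodilator adrenomedullin, at 1.62 (1.25 after median-ratio scaling), and without AdCMV replicate 3 the count was 2. The median of these 9 genes was 0.11, which is -0.27 relative to all genes. Ldha, an enzyme of glycolysis, had a log2 fold change of 0.80 and was not called, with 676 RPKM in AdVEGFA replicate 4 and 270 to 376 RPKM in the other 4 AdVEGFA mice. Ankrd37 (-0.09) and Slc2a1, the glucose transporter (-0.20), were the lowest.

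VEGF-C and VEGF-D are made as precursors. Of 6 genes that act in their cutting 5 were tested, and 1 was called higher, beside 13.0% of all genes: Ccbe1, which helps the protease reach VEGF-C, with 0.386, 0.388, 0.665, 0.315 and 0.576 RPKM in the AdCMV mice and 1.06, 1.41, 1.47, 1.18 and 1.14 RPKM in the AdVEGFA mice. Its log2 fold change was 1.28 (limma adjusted p = 0.00502), and 0.94 after median-ratio scaling, where 0 of 5 were called. Ccbe1 passed the filter through the AdVEGFA group alone. It was also called with no filter (limma adjusted p = 0.00489), but with a pseudocount of 1 it was at 0.62 and not called. Adamts14, a related protease, was at 1.08 without passing the adjusted p (0.0647), though it was called without AdCMV replicate 3 or 5, where the count was 2. Adamts14 too passed the filter through the AdVEGFA group alone. The proprotein convertases Pcsk5 (0.19) and Furin (-0.02) were not called. Of 6 proteins of the matrix and plasma that bind VEGF-A or its heparan sulphate partners, 3 were called higher with either scaling, beside 13.0% of all genes and 7.63% after median-ratio scaling. Their median was 1.46, where that of all genes was 0.38. Sparc rose by 3.34 and Hspg2, the heparan sulphate proteoglycan perlecan, by 2.76, while Vtn (0.69) and Gpc1 (0.45) were not called.

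**Figure D5:**
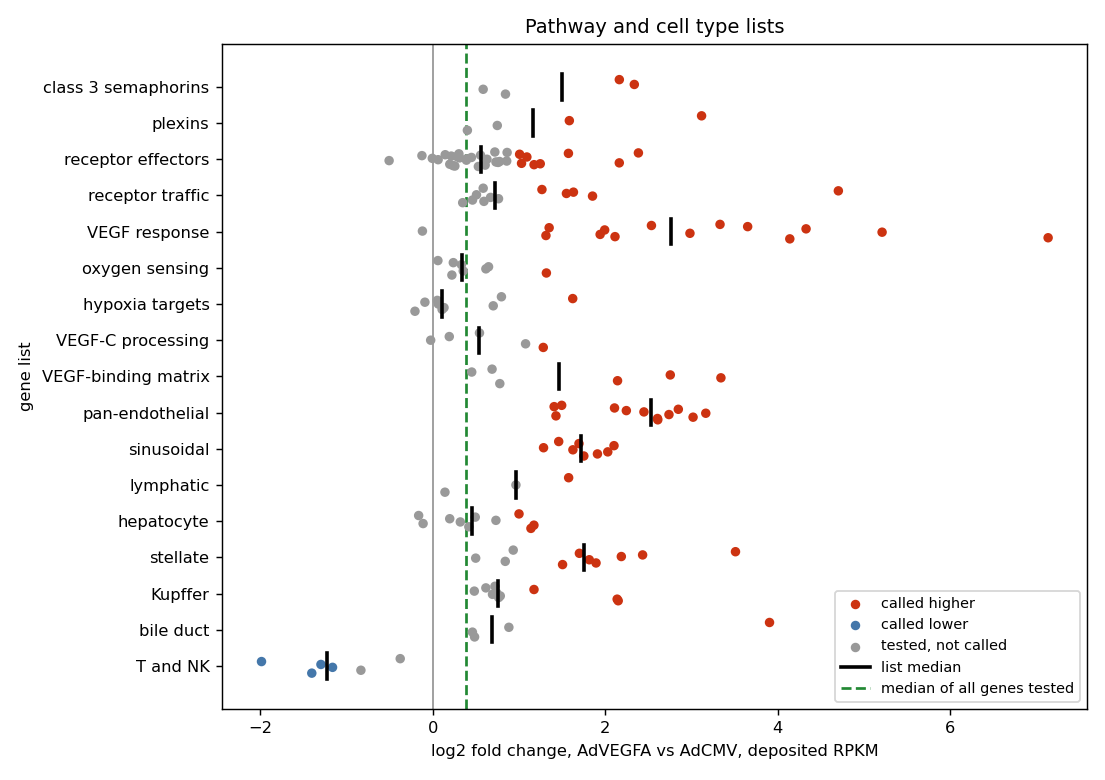
Log2 fold change, AdVEGFA against AdCMV on the deposited RPKM, of each tested gene of 9 pathway lists and 8 cell type lists, with called genes in colour, list medians as black bars and the all-gene median (0.38) as a dashed line. The genes of the VEGF response list spread from -0.12 to 7.14, the pan-endothelial markers lie between 1.41 and 3.17, and the hypoxia targets lie between -0.20 and 0.80 except Adm (1.62).

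Markers of other cell types of the liver are given beside these values, since the receptors are not carried by endothelial cells alone, and their part in the results was not tested. Each of the 8 sinusoidal markers rose, and 7 stayed called after median-ratio scaling (13.0% and 7.63% of all genes), with Oit3 (2.10) and Lyve1 (2.03) highest and Mrc1 (1.46) and Fcgr2b (1.29) lowest. Their sum was 64.9, 82.0, 94.7, 54.4 and 92.4 RPKM in the AdCMV mice and 282.5, 221, 244, 267 and 198 RPKM in the AdVEGFA mice, with Clec4g the most abundant in the AdVEGFA group. Of 5 lymphatic markers, which matter for Flt4 and Vegfc, 3 were tested and 1, Reln (1.58), was called higher. The cell type behind the Reln reads was not tested. Ccl21a, at 0.97 with a limma adjusted p of 0.0334, passed the threshold in 5 of the 10 fits without 1 mouse, so the count was 1 or 2 there, beside 13.0% of all genes. Prox1, which hepatocytes also express, was at 0.14, Mmrn1 had 0 reads in all 10 mice, and Pdpn was under the filter. The lymphatic sum was 11.6 ± 4.69 (SD, n = 5) RPKM in the AdCMV group and 19.5 ± 3.44 in the AdVEGFA group, with Prox1 the most abundant.

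The counts of the next 5 lists stand beside 13.0% of all genes called higher and 1.54% called lower, and 7.63% called higher after median-ratio scaling. Of 10 markers of stellate cells and fibroblasts 7 were called higher with either scaling, led by Col1a1 (3.51) and Ngfr (2.43), with Dcn (0.84) and Ecm1 (0.50) not called. Their sum was 116.8 ± 22.4 (SD, n = 5) and 285.1 ± 62.8 RPKM, and Dcn was the most abundant. Of 10 Kupffer cell markers 3 were called higher, 2 after median-ratio scaling, with Clec4f at 2.15 and Vsig4 at 2.14 and with Adgre1 (0.62) and C1qb (0.48) not called. Their sum was 177.9 ± 53.5 (SD, n = 5) and 301.9 ± 51.4 RPKM, with Cd5l the most abundant. Of 10 hepatocyte markers 3 rose with the deposited scaling and 0 with median-ratio scaling, with Apoa1 (1.17) and Alb (1.14) highest and Apob (-0.11) and Hnf4a (-0.16) lowest. Of 6 bile duct markers 4 were tested and Spp1 alone was called, at 3.91. Sox9 (0.88), which was called without AdVEGFA replicate 1, Krt19 (0.49) and Epcam (0.46) were otherwise not called. The sum, with Spp1 the most abundant, was 41.9 ± 11.96 (SD, n = 5) and 543 ± 174 RPKM, and without Spp1 it was 6.68 ± 1.05 and 12.2 ± 3.33 RPKM, so that nearly all of the difference was that of Spp1. Of 8 T and NK cell markers 6 were tested and 4 fell, 5 after median-ratio scaling (3.21% of all genes called lower), and 2 with a pseudocount of 1 or a filter of 2 RPKM, with Gzmb at -1.98 and Cd3e at -1.40, while Cd3d (-0.83) and Thy1 (-0.38) were not called. The sum was 20.6 ± 7.99 (SD, n = 5) and 9.21 ± 3.29 RPKM, with Nkg7 the most abundant in both groups.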

How the data were processed

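Total liver RNA of 10 mice, depleted of ribosomal RNA, was sequenced. The submitters' processing notes name TopHat, HOMER and mm9, and the deposited table holds an RPKM value for each of 24016 transcripts in each mouse. Its 2 columns with the authors' own comparison, a log2 fold change and an FDR, were not used, and 5 transcripts with no symbol were left out. The number of columns of per-sample values not used was 0. Reads were recovered from the steps of the values. Of the values under 300.0 reads, 100% lay within 0.1 reads of a whole number, or within the rounding of the value where that was wider. Values of 0 are included and are whole by definition.

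The test was limma 3.58.1 in R 4.3.3 (lmFit, eBayes with a trend), two-sided, on log2(RPKM + 0.1), for genes that averaged above 0.5 RPKM in either group, and p-values were adjusted by Benjamini-Hochberg over all of them. Standard errors and 95% intervals are those of that fit. For the endothelial scale the mean log2 value of 12 markers was subtracted from each library first. Ratios were tested by exact permutation (Python 3.11.15, numpy 2.4.6). The recovery of reads was tested on simulated data. The floor set by reads for Pgf covers counting error in the AdCMV reads only. Also run were median-ratio scaling, upper quartile scaling, pseudocounts of 1 and 0.01, no filter, a filter of 2 RPKM, the replicate number as a block, limma voom on the recovered reads, a sinusoidal reference panel and fits without each mouse in turn.

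The 10 genes and the lists were chosen with earlier results of these data known. Named besides the 10 genes were up to 4 tested genes of each list, the 2 with the highest and the 2 with the lowest log2 fold change, the 2 genes nearest in profile to Kdr and to Flt1 and the 3 nearest to Vegfa, the most abundant gene and the genes without reads or under the filter of some marker lists, the semaphorins under the filter, and called genes that passed it through 1 group alone. Promoter letters come from RefSeq, build GRCm38.p6, and were counted on both strands, with shares over all windows of 300.0 bases except those of chromosome 18.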

Additional observations from a re-analysis of the deposited data

Results flagged for a closer look

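In 50 sets of 5 mice of 1 group, the highest and the lowest mouse were compared with the others by Dixon's ratio of the gap to the nearest mouse over the whole range, for which 0.71 is the 95% critical value for 5 values. Chance alone gives about 1 such mouse in 20 sets, or 2.5 in 50 sets. There were 3, and all were AdVEGFA replicate 4. That count is near 2.5, but 2.5 does not weigh how far a value lies past 0.71 or that all came from 1 mouse. Its Kdr was 16.0 RPKM where the next lowest mouse of the group had 33.4, and the gap was 0.948 of the range. Against the pan-endothelial panel of the same liver, its Kdr was -0.30 in log2 where the next lowest mouse was at 0.79 (0.774 of the range), and its Flt1 was -1.29 where the next was at -0.52 (0.747 of the range). These 3 values are not independent of each other, since they come from 1 library and 2 of them share a gene. The same mouse had the highest Vegfa (39.4 RPKM), Pgf (1.08 RPKM) and panel sum (374 RPKM) of its group, and its library was the largest of the group with 8133950 mapped tags. Its RPKM values for Vegfc (5.12), Flt4 (6.31), Nrp2 (2.45), Erg (3.02) and Tbx2 (5.12) were the lowest of the group.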

How the results depend on the processing

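Over 136 results and 2378 values under an alternative, 1662 were values with a test, of which 1556 kept their direction and their side of the threshold, 43 fell short of it, 17 passed it newly and 46 changed sign. The other 716 were counts, of which 599 were unchanged, 79 changed by up to 1.5 times and 38 by more. The cause of these differences was not tested. With median-ratio scaling log2 fold changes were -0.38 for Vegfb, 0.81 for Nrp2, -0.25 for Prox1, -0.046 for Ptprj, -0.17 for Hif1a, -0.31 for Hif1an and -0.17 for Pcsk5, and 1055 genes were called higher and 444 lower. With upper quartile scaling they were -0.33 for Vegfb, 0.86 for Nrp2, -0.21 for Prox1, -0.0023 for Ptprj, -0.13 for Hif1a, -0.27 for Hif1an and -0.13 for Pcsk5, and 1099 genes were called higher and 397 lower. With a pseudocount of 1 Nrp2 was at 0.86, 954 genes were called higher, and Vegfc was at -0.25 on the endothelial scale. With a pseudocount of 0.01 the log2 difference was 0.0098 for Flt1/Kdr and -0.59 for Nrp2/Nrp1. With the sinusoidal reference Flt4 was at 0.042 and Nrp1 at 0.10, and 2 of the 10 genes were called higher and 2 lower.

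Without 1 mouse at a time the log2 fold change ran from -0.16 to 0.17 for Vegfb, 0.97 to 1.37 for Nrp2, -0.037 to 0.34 for Prox1, -0.23 to 0.021 for Apob, -0.035 to 0.78 for Krt19, -0.33 to 0.10 for Hspb1, -0.26 to 0.14 for Rcan1, -0.064 to 0.34 for Hif1an, -0.43 to 0.36 for Ankrd37 and -0.16 to 0.078 for Furin. The log2 ratio difference ran from -0.089 to 0.015 for Flt1/Kdr, -1.11 to -0.91 for Flt4/Kdr, -1.13 to -0.82 for Nrp1/Kdr, -0.81 to -0.52 for Nrp2/Nrp1 and 0.69 to 0.93 for Vegfa/Vegfb. A gene has no value in a fit whose filter it does not pass, as Figf with the filter of 2 RPKM.

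With the replicate number as a block 1933 genes were called higher and 256 lower, the same 6 of the 10 genes were called, and Kdr was at 2.78. Deviations from the group means correlated at 0.0357, 0.109, 0.00763, 0.096 and 0.291 between samples with numbers 1 to 5. Only number 5 correlated best with its own number. These correlations were not tested and cannot decide whether samples with the same number were handled together.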
